A study of Saccharomyces cerevisiae with 109 samples.

Results

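Genomic expression in wild-type yeast was followed over time after treatment with NaCl, in 2 time courses that together make up 7 of the 109 arrays of the series. The arrays were chosen by their labels as all those of wild-type cells in NaCl. Every cell was of strain BY4741, a laboratory strain of Saccharomyces cerevisiae of mating type a that carries deletions of HIS3, LEU2, MET15 and URA3, so that all samples, the unstressed references included, share these 4 deletions. Cells were grown in YPD, a rich glucose medium, at 30°C, and salt was added directly to the culture. The channel sources give 0.75 M NaCl, and the descriptions of the same samples give 0.7 M. Course 1 was sampled at 15, 30, 60 and 90 min and course 2 at 30, 45 and 60 min, with 1 array at each time, so 30 and 60 min were measured in both courses and the other times once. Each array set RNA of stressed cells against RNA of unstressed cells in 2 dyes. Stressed RNA carried the dye of 650 nm in course 1 and that of 550 nm in course 2, and so course and dye cannot be told apart, while a mean over both courses holds both dye orientations once. The arrays of a course share their unstressed reference. For comparison, the same strain at 30 min of 0.4 mM H2O2 (8 arrays) and at 30 min of a shift from 25°C to 37°C (2 arrays) was used. The 7 rpd3Δ arrays in NaCl, cells that lack the histone deacetylase Rpd3p, entered the estimate of the spread and the choice of genes to test. They entered no mean given here.

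High external salt draws water out of a yeast cell and brings in sodium ions. Cells answer through the HOG pathway, a cascade of kinases that ends in Hog1p, and build up glycerol as an internal solute, while sodium is pumped out at the plasma membrane. Many stresses, salt among them, also raise a common set of genes through the factors Msn2p and Msn4p and lower genes for making ribosomes, together the Environmental Stress Response.

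Between 5143 and 5995 genes had a value on each array, and the SD of the log2 ratios over genes lay between 0.739 and 1.29, highest at 30 min in both courses. Of the genes deleted in the strain, LEU2 had a value on 0 of 7 arrays, MET17 (the current name of MET15) on 1, URA3 on 4 and HIS3 on 7. What the values of deleted genes stand for was not tested. A gene was tested when at least 80% of the arrays of the fit measured it. In the NaCl fit the rpd3Δ arrays counted too, which left 5003 of 6297 genes, against 5196 with wild-type arrays only.

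Salt shifted a large share of the genome at 30 min, up and down in similar number, and fewer genes were called at 60 min. At 30 min, 1593 of the 5003 genes tested differed from 0 (31.8%) in limma at a false discovery rate (FDR) under 0.01, 755 of them higher in stressed cells (15.1%) and 838 lower (16.7%). At 60 min these numbers were 452 (9.03%), 275 (5.50%) and 177 (3.54%). Over all time points together, an F test built from limma's moderated t values called 1372 genes (27.4%). By the sign of the mean of 30 and 60 min, 667 of them were higher (13.3%) and 705 lower (14.1%). Single arrays showed the same course of events. Changes of over 2-fold were seen in course 1 for 519 genes upward (9.68%) and 618 downward (11.5%) at 15 min, 790 (13.9%) and 924 (16.3%) at 30 min, 642 (12.5%) and 654 (12.7%) at 60 min, and 449 (7.92%) and 387 (6.83%) at 90 min. In course 2 they were 846 (14.7%) and 1030 (17.9%) at 30 min, 513 (8.82%) and 660 (11.3%) at 45 min, and 370 (6.17%) and 299 (4.99%) at 60 min. The counts of limma depend on having both courses. When a course was left out, the lone array at each time was assumed to vary like the others. Without course 1, 707 genes were called at 30 min and 24 at 60 min, and without course 2, 554 and 259. Without the course 1 array at 60 min, a choice made after seeing the data, 57 genes were called at 60 min, 54 higher and 3 lower.

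The courses gave similar profiles. Across 5393 genes, the log2 ratios of the 30 min arrays correlated with r = 0.853 (Spearman's rho 0.840), and across 5022 genes those at 60 min with r = 0.753 (rho 0.714), where genes are not independent replicates and the arrays share the strain and the array design but not the culture, reference or dye orientation. Among tested genes, 82.7% had the same sign in both courses at 30 min (4083 of 4940) and 79.9% at 60 min (3788 of 4740), with a median absolute difference of 0.328 and 0.260 on the log2 scale. The 60 min array of course 2 was closer to the 90 min array of course 1 (r = 0.846, SD of the difference 0.452, 5517 genes) than to its 60 min array (SD of the difference 0.716). A test of the course term in limma called 0 of 4998 genes (0%) at an FDR under 0.05, with 446 genes at an unadjusted p under 0.05, and 1 gene when only wild-type arrays were fitted. With 1 array per course and time, this does not show that the courses were alike.

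**Figure D1:**
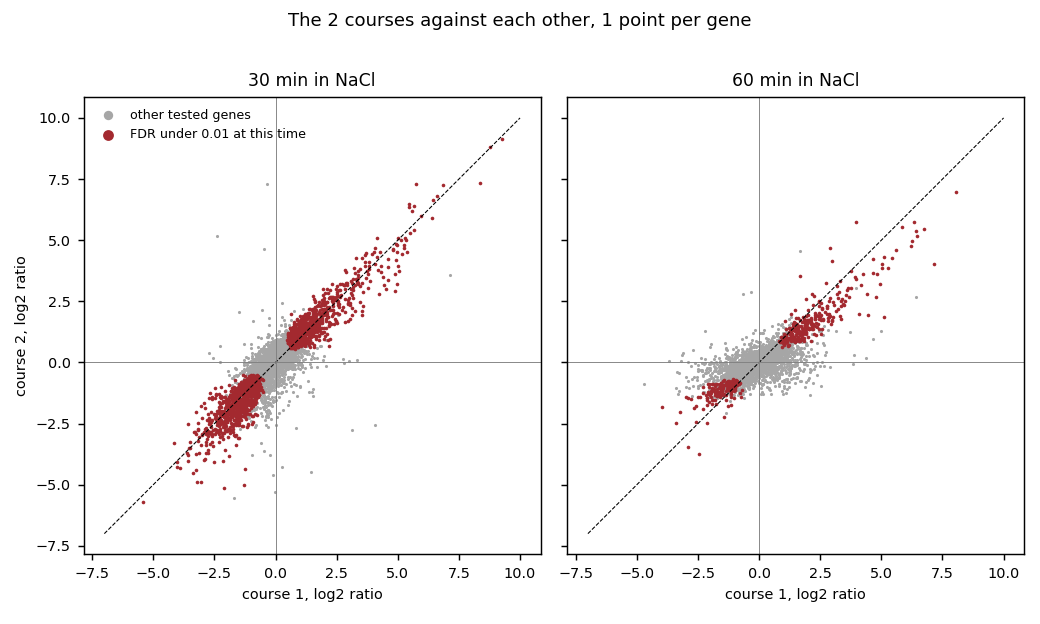
Log2 ratio of each tested gene in course 1 (x axis) against course 2 (y axis) at 30 min (left) and 60 min (right), with genes at an FDR under 0.01 at that time in red and others in grey; the dashed line marks equal values. At 30 min points lie along the line (r = 0.853 over all genes measured), and at 60 min the spread of course 1 is the wider one (SD of the log2 ratios 1.09 against 0.739).

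The plot of the courses against each other shows the same at the level of single genes, with a few far from the line. One was CTT1, the cytosolic catalase. Its log2 ratios were 5.95, 7.14, 6.43 and 5.26 at the 4 times of course 1, and 3.56, 3.14 and 2.68 at the 3 times of course 2. All 7 arrays lay above 0, but those of course 2 were all below those of course 1, and the mean at 30 min of 5.35 ± 1.23 (SE, n = 2) did not pass the threshold in limma (FDR = 0.0128). In SWI4, a cell cycle transcription factor, one array stood alone at -5.32 (course 2, 30 min), while the other 5 with a value lay between -0.81 and 0.05.

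The genes with the highest ratios are the 10 with the highest mean of 30 and 60 min among 217 genes higher at both times and of one sign on every array, so that their rank and their sign are a description. STL1 (YDR536W) encodes the glycerol/proton symporter that takes glycerol up from the medium. Its log2 ratios were 8.25, 9.28, 7.14 and 6.18 in course 1 and 9.15, 6.88 and 4.03 in course 2, listed here and below in the order of time. Every array was far above 0, with the highest value at 30 min in both courses and the lowest at 60 min of course 2. The mean at 30 min was 9.21 ± 0.66 (SE, n = 2; limma, FDR = 0.000151), a 594-fold excess, and at 60 min 5.58 or 48.0-fold, and the difference of these means did not pass in limma (-3.63, FDR = 0.0667). RTC3 (YHR087W), a small protein with a role in RNA metabolism, was at 8.16, 8.79, 8.05 and 7.26 in course 1 and at 8.79, 8.04 and 6.96 in course 2. It was high on all 7 arrays and was already so at 15 min. The mean at 30 min was 8.79 ± 0.24 (SE, n = 2; limma, FDR = 7.86e-06), or 442-fold.

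The other 8 showed 3 kinds of timing. PHM7 (YOL084W), a membrane protein, peaked at 30 min, with 4.52, 8.38, 5.02 and 4.34 in course 1 and 7.32, 5.64 and 3.86 in course 2. The fall from 7.85 at 30 min to 4.44 at 60 min was called in limma (difference -3.41, FDR = 0.0127). Broad plateaus were seen for DDR2, a stress protein, MSC1 and GRE1, a hydrophilin induced by osmotic stress, where the means at 30 and 60 min were 6.55 and 6.10, 6.16 and 5.62, and 5.89 and 5.81. HBT1 (YDL223C), a substrate of the ubiquitin-like protein Hub1p, was the latest, at 1.12, 5.16, 6.33 and 5.10 in course 1 and 4.44, 6.01 and 5.74 in course 2. Its lowest value was the 15 min array, and in both courses a later time stood above 30 min. The difference of 60 and 30 min, 1.23, did not pass in limma (FDR = 0.0728), and did with the course as a block (FDR = 0.0440). SOL4, NQM1 and TKL2 encode minor forms of pentose phosphate pathway enzymes and lay between 3.93 and 7.29 on all arrays. For TKL2 the 60 min array of course 1 (3.95) lay below its 30 and 90 min arrays (6.84 and 5.30), and course 2 had 5.74 at 60 min.

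**Figure D2:**
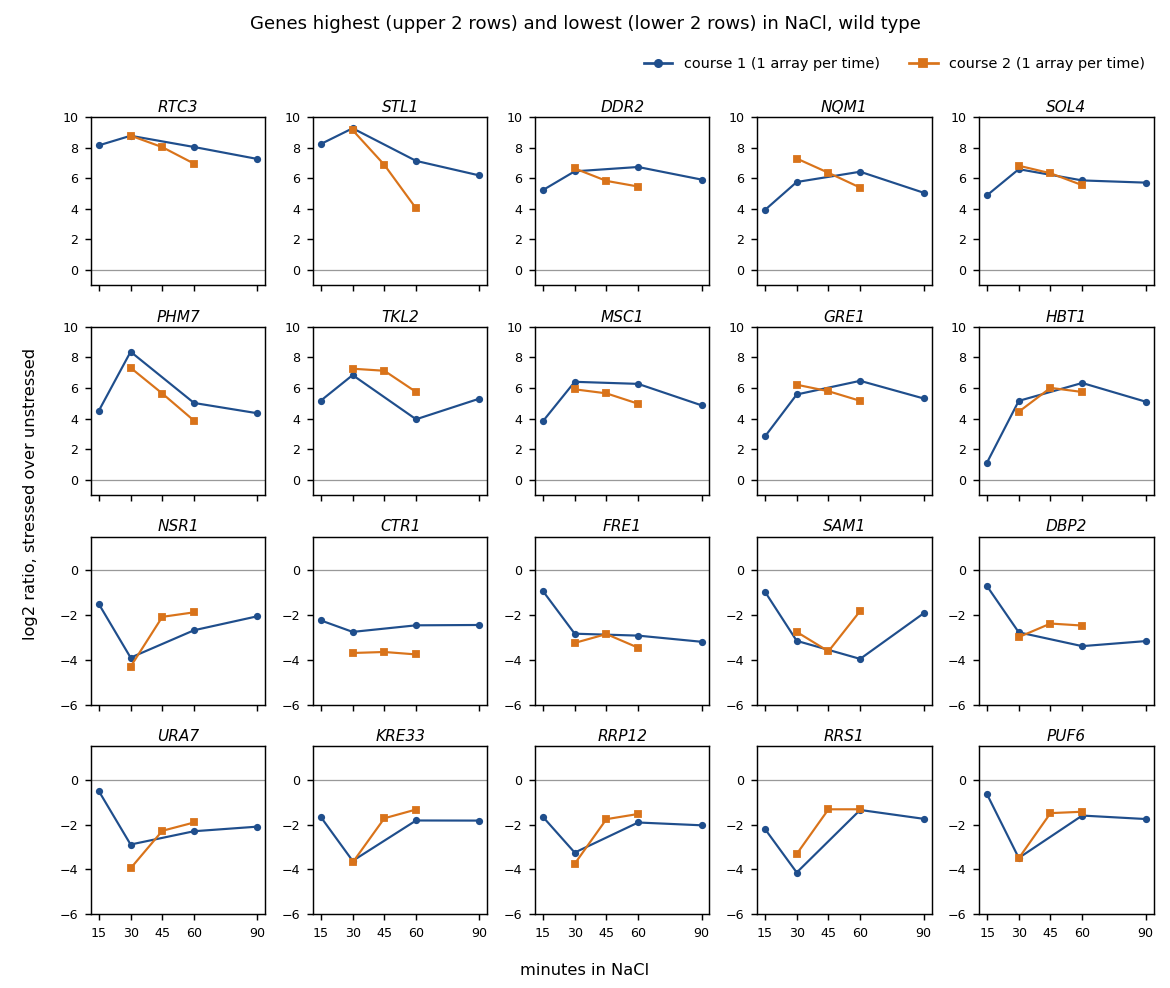
Log2 ratio (y axis) against minutes in NaCl (x axis) for the 10 genes with the highest (upper panels) and the 10 with the lowest (lower panels) mean of 30 and 60 min, with course 1 as blue circles and course 2 as orange squares, 1 array per point. STL1 and PHM7 were highest at 30 min and HBT1 stood at only 1.12 on the 15 min array, while FRE1 and CTR1 of the lower panels stayed low up to the last time.

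GPP2 and STL1 led the genes of glycerol metabolism, and the plot of glycerol and sodium genes gives every member. Of 16 genes of glycerol synthesis, breakdown and transport, 12 were tested, 7 were higher at 30 min and 2 lower, and at 60 min 6 were higher and 0 lower, with a median of 1.28 and 1.21 against -0.05 and -0.06 over all tested genes. Leaving out the course 1 array at 60 min left 3 higher then. The shares of all tested genes were 15.1% higher and 16.7% lower at 30 min, and 5.50% and 3.54% at 60 min. Glycerol is made from dihydroxyacetone phosphate by a dehydrogenase and a phosphatase. GPP2 (YER062C), the phosphatase known for its osmotic induction, had log2 ratios of 4.72, 5.94, 5.12 and 3.89 in course 1 and 5.97 and 4.31 at 30 and 60 min in course 2, with no value at 45 min. It was high on all 6 arrays, with nearly equal values in both courses at 30 min (mean 5.96 ± 0.21, SE, n = 2; limma, FDR = 1.25e-05). Its paralog GPP1 was at 1.08 at 30 min on the only array that measured it then (FDR = 0.00812).

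GPD1, the dehydrogenase that responds to osmotic stress, had no value at 30 min in either course and was therefore not tested. At 15, 60 and 90 min of course 1 it was at 5.53, 3.96 and 3.76, and at 45 and 60 min of course 2 at 4.20 and 2.84. All 5 were high, the earliest most of all. The second dehydrogenase, GPD2, known to respond to lack of oxygen, went the other way and was lower at 30 min (-2.02 ± 0.33, SE, n = 2; limma, FDR = 0.0034), with all 7 arrays between -2.62 and -1.12. Other enzymes of glycerol and dihydroxyacetone rose as well. DAK1, a dihydroxyacetone kinase, was at 2.80 at 30 min and 3.27 at 60 min, GCY1 and YPR1, reductases that act on glycerol and related compounds, at 1.61 and 1.49 at 30 min, and GUT2, the mitochondrial glycerol-3-phosphate dehydrogenase, at 2.75 at 30 min (limma, each FDR under 0.01). FPS1, the channel through which glycerol leaves the cell, was at 0.11 and -0.25 at the 2 times and passed at neither. Its regulator ASK10 was lower at 30 min (-0.93) and the related RGC1 did not pass (0.57). GUP1 did not pass (0.68), GUT1, glycerol kinase, was not tested and lay between -0.38 and 0.47, and GUP2 and DAK2 had values on 3 arrays and 1 array.

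**Figure D3:**
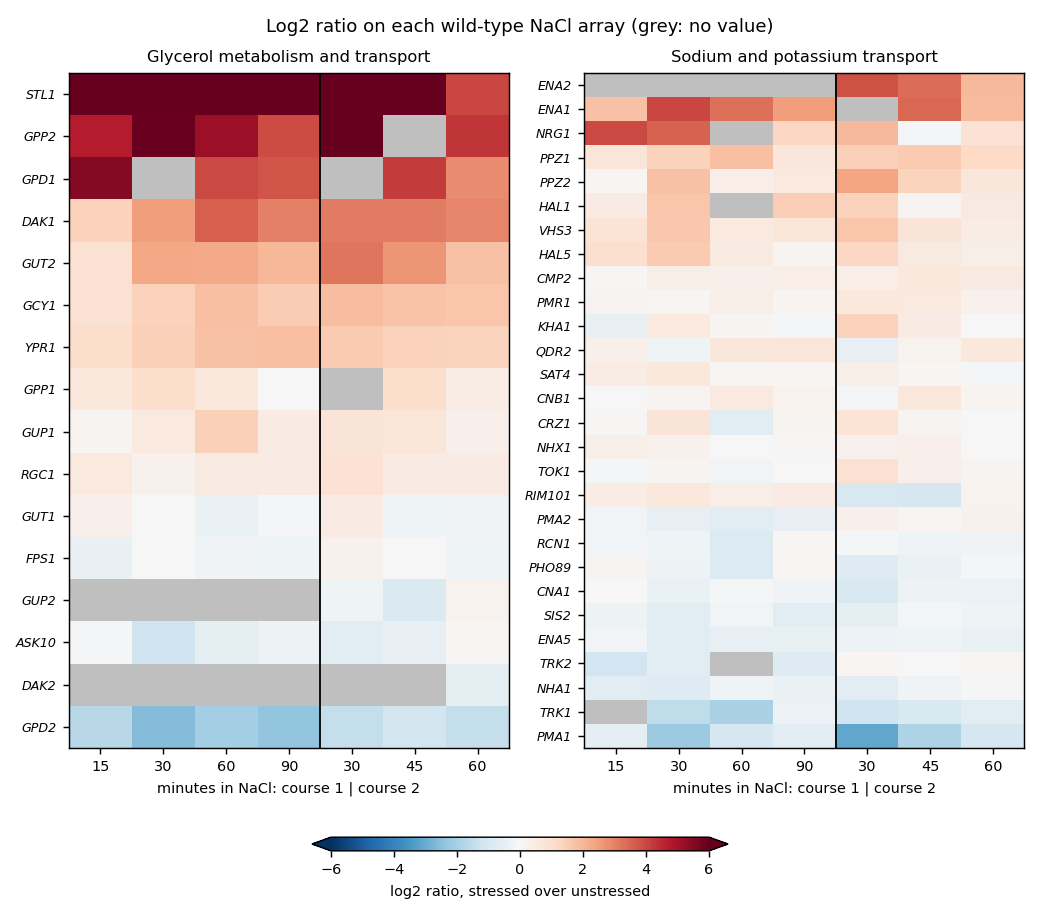
Log2 ratio (colour, red higher and blue lower in stressed cells, grey without a value) of 16 glycerol genes (left) and 28 sodium and potassium genes (right) on the 7 arrays, with minutes in NaCl on the x axis and the vertical line between course 1 and course 2. STL1, GPP2 and GPD1 head the left panel and GPD2 ends it, and ENA1, ENA2 and NRG1 stand above the other sodium and potassium genes.

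The ENA genes encode P-type pumps that export sodium and lie in a cluster of near-identical copies, so that their spots can bind RNA of one another. ENA1 (YDR040C) was at 1.76, 4.01, 3.30 and 2.50 in course 1 and at 3.43 and 1.92 at 45 and 60 min in course 2, without a value at 30 min. ENA2 was measured only in course 2, with 3.84, 3.35 and 1.96. Both were highest at 30 min, and at the times they share in course 2 their values were within 0.1 of each other. ENA1 rose at 30 min (4.01 ± 0.48, SE, from the 1 array with a value; limma, FDR = 0.00165) and at 60 min (2.61, FDR = 0.00638).

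Among all 28 sodium and potassium genes, 27 were tested. At 30 min 8 were higher and 1 lower, beside 15.1% and 16.7% of all genes. At 60 min 2 were higher and 0 lower, beside 5.50% and 3.54%. With the course 1 array at 60 min left out, 0 were called then. The others that rose at 30 min were mainly regulators of ion balance: the kinase HAL5 (1.41), the phosphatases PPZ1 (1.40) and PPZ2 (2.05), VHS3, an inhibitor of these phosphatases (1.64), HAL1 (1.54) and the repressor NRG1 (2.74). KHA1, a potassium/proton antiporter, rose by less (0.99). PPZ1 was again higher at 60 min (1.49), while PPZ2, VHS3 and HAL5 fell back (differences -1.51, -1.12 and -0.97, FDR = 0.0267, 0.0400 and 0.0395, and 0.101, 0.115 and 0.103 without the course 1 array at 60 min). PMA1, the proton pump that energizes the plasma membrane, was the member that fell. It was at -0.54, -2.16, -1.01 and -0.69 in course 1 and -3.12, -1.85 and -1.01 in course 2, below 0 on every array and lowest at 30 min in both courses (-2.64 ± 0.25, SE, n = 2; limma, FDR = 0.000207). The potassium importer TRK1 was at -1.38 and missed the threshold (FDR = 0.0113), and the calcineurin genes CNA1, CMP2 and CNB1 and their target factor CRZ1 did not pass at 30 min (-0.66, 0.38, 0.03 and 0.78).

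Genes of the HOG pathway itself were called in about the share of all genes (15.1% higher and 16.7% lower at 30 min, 5.50% higher at 60 min) or less. Of 22, 19 were tested, 2 were higher at 30 min and 1 was lower, and 1 was higher at 60 min (0 without the course 1 array). The 2 that rose encode phosphatases that switch the pathway off, PTP2 (1.40 at 30 min, 0.88 at 60 min) and PTC1 (0.97 at 30 min), and the one that fell, SHO1 (-1.16), encodes a membrane sensor. HOG1 was at 0.37 at 30 min and at 1.03 at 60 min (FDR = 0.0247), and PBS2, its activating kinase, at 0.10 and 0.37. Transcription factors of the stress response moved more. Of 21 listed and 18 tested, 8 rose and 1 fell at 30 min, and 1, XBP1, was higher at 60 min (0 without the course 1 array). The genes that rose were CIN5 (3.99), USV1 (4.41), XBP1 (3.90), GIS1 (2.51), MSN2 (2.01), NRG2 (1.47), MOT3 (0.95) and MIG1 (0.81), with SKN7 lower (-0.85). CIN5 had log2 ratios of 3.60, 4.30, 1.12 and 1.65 in course 1 and 3.69, 1.17 and 1.35 in course 2. It was at 3.60 or more up to 30 min and between 1.12 and 1.65 from 45 min on. The fall of 60 against 30 min was called (-2.76, FDR = 0.0221) and was not without the course 1 array at 60 min (FDR = 0.0783). Of the factors tied to Hog1p, HOT1 and SKO1 did not pass at 30 min (0.28 and 0.67), nor did MSN4 (0.73, FDR = 0.0158).

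General stress effectors were the group with the highest median. The list was drawn up with earlier results of these data known. It holds DDR2, MSC1, GRE1 and SOL4 from the highest genes above, so that its rank is a description. Of 26, 21 were tested, and 20 were higher at 30 min and 19 at 60 min, with medians of 4.22 and 3.07. The latter count was 11 without the course 1 array at 60 min. The mean over 21 genes was 2.94, 4.34, 3.84 and 3.44 in course 1 and 4.21, 3.77 and 3.17 in course 2, highest at 30 min in both. The small heat shock gene HSP26 was at 4.22 at 30 min and 3.75 at 60 min, and HSP42, another of this kind, fell (5.17 and 2.07, difference -3.10, FDR = 0.00856), with arrays at 4.56, 5.32, 1.99 and 2.42 in course 1 and 5.02, 2.89 and 2.16 in course 2. YGP1, a secreted glycoprotein, was the one that rose between these times, from 3.19 to 4.84 (difference 1.65, FDR = 0.0385), and this did not pass without the course 1 array at 60 min (FDR = 0.0889). SPI1, a cell wall protein, was at 3.20 at 30 min and no longer passed at 60 min (0.63). HSP12 had a value on 1 array only, 7.23 at 15 min.

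Storage carbohydrate genes rose as well. All 9 trehalose genes were higher at 30 min and 8 at 60 min, or 5 without the course 1 array at 60 min, with genes of synthesis (TPS2 4.89, TSL1 4.96, TPS1 3.88 at 30 min) and of breakdown (NTH1 2.95, ATH1 3.06, NTH2 1.60) among them. The median of the 9 was 3.06 at 30 min. Of 14 glycogen genes, 12 were tested, 10 were higher at 30 min and 4 at 60 min (2 without the course 1 array), again with synthesis (GSY1 4.47, GLC3 3.80) and breakdown (SGA1 4.75, GDB1 3.62, GPH1 2.53) together. GSY1, glycogen synthase, fell (FDR = 0.0329 for 60 against 30 min, and 0.0586 without that array), from 3.71 and 5.00 at 15 and 30 min to 2.56 at 90 min in course 1, and from 3.93 to 1.98 and 0.67 in course 2, and had no value at 60 min of course 1. The second glycogen synthase, GSY2, was at 1.74 and 1.30.

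Hexose uptake and phosphorylation gave 7 higher and 0 lower of 16 tested at 30 min, and 2 higher at 60 min (3 without the course 1 array). The shares of all tested genes were 15.1% higher and 16.7% lower at 30 min, and 5.50% higher at 60 min. The kinases of glucose that rose were HXK1 (3.59), GLK1 (4.42) and EMI2 (2.97), while HXK2, the main hexokinase in glucose, did not pass (-0.46). HXT1, a low-affinity glucose transporter, was at 2.25, 3.20, 1.78 and 1.31 in course 1 and at 3.88, 2.30 and 0.97 in course 2, above 0 on each array and highest at 30 min (3.54 ± 0.27, SE, n = 2; limma, FDR = 0.000186). HXT5, a transporter of slow-growing cells, was higher still (5.97), with the course 1 array at 60 min (1.69) far below those at 30 and 90 min (5.48 and 4.53). Of 40 oxidative phosphorylation genes tested, 14 were higher and 3 lower at 30 min and 7 higher at 60 min (0 without the course 1 array), and their mean in course 1 was 0.23 at 15 min and 0.99 at 90 min. The counts stand beside the same shares of all genes, above them for higher genes and below them for lower genes at 30 min. SDH1, SDH2, SDH3 and SDH4 of succinate dehydrogenase lay between 1.15 and 1.47 at 30 min, whereas CYC1, the main cytochrome c, was at -2.42 and its minor isoform CYC7 at 2.12. Among 28 chaperone genes tested, 4 were higher and 6 lower at 30 min, near the 15.1% and 16.7% of all genes, the latter including the ribosome-bound SSB1 (-2.02) and SSB2 (-1.89).

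**Figure D4:**
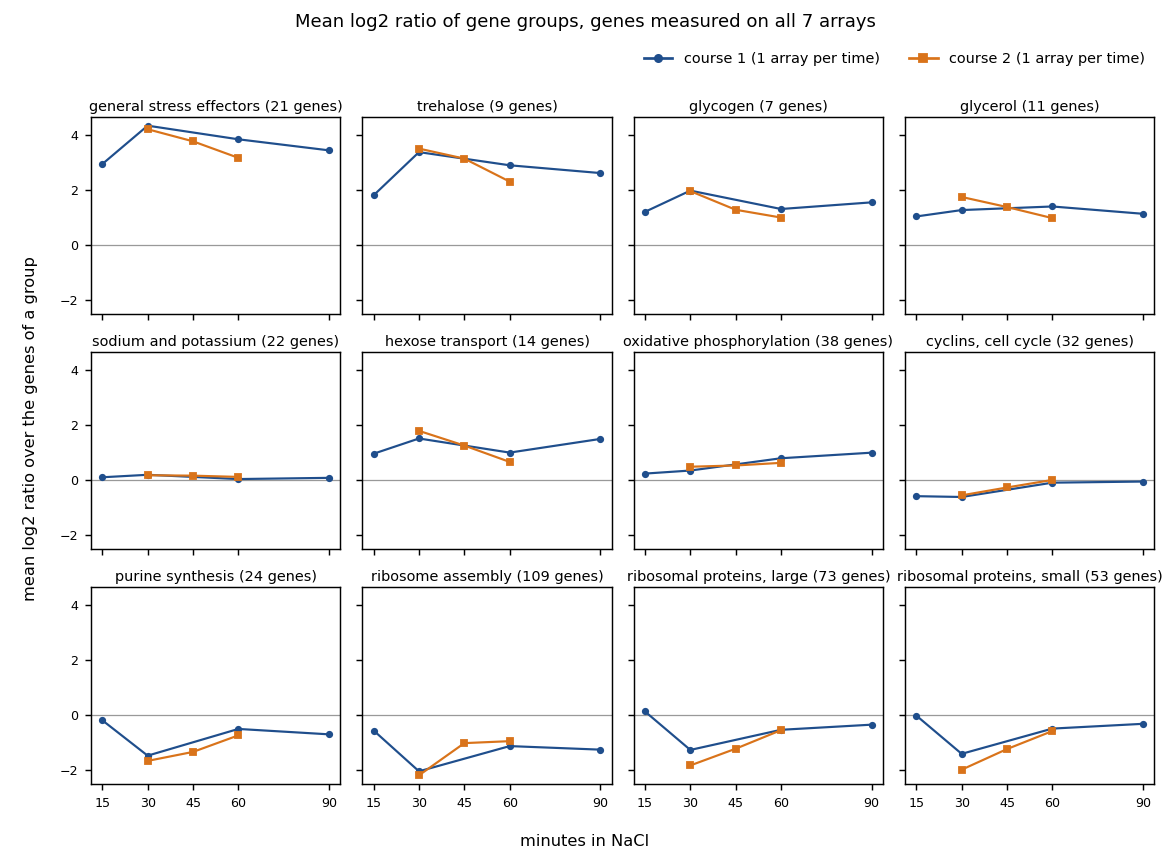
Mean log2 ratio over the genes of 12 groups measured on all 7 arrays (y axis) against minutes in NaCl (x axis), with course 1 in blue and course 2 in orange; the number of genes is given in each panel. General stress, trehalose and glycogen genes were highest at 30 min, ribosome assembly and ribosomal protein genes lowest at 30 min, and ribosomal protein genes were close to 0 at 15 min (0.13 and -0.02).

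Genes for making ribosomes made up the main repressed group. Of 118 ribosome assembly genes, which act in processing of rRNA and building of the subunits, 113 were tested, and 0 were higher and 106 lower at 30 min, and 54 were lower at 60 min, with medians of -2.16 and -1.08. Over 109 of them the mean was -0.56, -2.05, -1.13 and -1.26 in course 1 and -2.19, -1.02 and -0.95 in course 2. The lowest point was 30 min in both courses, and the group was below 0 on all arrays. A higher ratio at 60 than at 30 min was called for 45, and a lower one for 0. Leaving out the course 1 array at 60 min gave 1 lower at 60 min and 14 with a called return. NSR1 (YGR159C), nucleolin of yeast, had the lowest mean of 30 and 60 min among 133 genes. These were lower at both times and of 1 sign on every array that measured them, so that rank and sign are a description. NSR1 was at -1.51, -3.91, -2.68 and -2.06 in course 1 and -4.31, -2.08 and -1.88 in course 2. All arrays were low, and those of 30 min lowest (-4.11 ± 0.25, SE, n = 2; limma, FDR = 5.3e-05, 17.2-fold). KRE33, RRP12, RRS1 and PUF6, which also act in ribosome assembly, were among the 10 lowest, with -3.65, -3.50, -3.72 and -3.49 at 30 min and between -1.71 and -1.33 at 60 min. NOG1, a GTPase of the large subunit's assembly, was at -4.16 at 30 min, but its 60 min arrays read 0.09 in course 1 and -1.29 in course 2. Subunits of RNA polymerases I and III (19 of 37 lower at 30 min, 1 higher) and translation factors (27 of 40 lower, 0 higher) were lower too, with 2 and 6 lower at 60 min (0 and 0 without the course 1 array).

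Cytosolic ribosomal protein genes were lower at 30 min in nearly the same share, and few were called at 60 min. Of 73 tested for the large subunit, 64 were lower at 30 min (median -1.62) and 2 at 60 min (median -0.59). For the small subunit, 48 of 53 were lower at 30 min (median -1.72) and 1 at 60 min (median -0.58). The means over the large subunit were 0.13, -1.27, -0.54 and -0.35 in course 1 and -1.83, -1.22 and -0.55 in course 2, and those over the small subunit -0.02, -1.41, -0.49 and -0.32, and -1.99, -1.24 and -0.58. At 15 min the ribosomal protein means were near 0, when the assembly genes stood at -0.56, and this is 1 array with no test. At 30 min both means were lower in course 2 than in course 1. A higher ratio at 60 than at 30 min was called for 23 and 24 genes, and for 3 and 1 without the course 1 array at 60 min. Exceptions were RPL24B, with opposite signs in the courses (-1.50 and 2.05 at 30 min), and RPL3, with nearly equal values at 30 and 60 min (-1.22 and -1.15). Many of these genes are near-identical pairs, whose spots can bind RNA of both copies. Of 52 mitochondrial ribosomal protein genes, 2 were higher and 1 was lower at 30 min, beside 15.1% and 16.7% of all genes.

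Other genes of growth fell in the same window. Of 25 purine synthesis genes, 16 were lower at 30 min and 0 higher (median -1.54), and 3 were lower at 60 min (0 without the course 1 array). They include HPT1, the salvage enzyme for hypoxanthine and guanine, with -2.19, -4.03, -1.33 and -1.85 in course 1 and -4.06, -1.88 and -0.58 in course 2. It was nearly equal in the courses at 30 min and had risen again by 60 min (difference 3.09, FDR = 0.0259), a call that was lost without the course 1 array at 60 min (FDR = 0.0668). ADE4, the first enzyme of the pathway, was at -2.11 and ADE6 at -2.84. URA7, CTP synthase, was at -3.42 at 30 min and -2.10 at 60 min. Of 38 cell cycle genes, 12 were lower and 1 was higher at 30 min, and at 60 min 0 were higher and 1 was lower (0 without the course 1 array). Among all genes tested, 16.7% were lower and 15.1% higher at 30 min. The mitotic cyclins CLB1 (-1.72) and CLB2 (-2.08) and the ribonucleotide reductase RNR1 (-1.79) were lower. The kinase CDC28 was higher (1.25), and the G1 cyclins CLN1 and CLN2 did not pass (-0.84 and -0.97). CLB1 and CLB2 had risen again at 60 min (0.30 and 0.53, differences 2.02 and 2.61, FDR = 0.0180 and 0.0266, and 0.0720 and 0.0574 without the course 1 array at 60 min), though CLB2 at 60 min was at 1.29 in course 1 and -0.23 in course 2.

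In the mating response, 8 of 26 genes tested were lower at 30 min and 3 were higher, and at 60 min 1 was lower and 1 higher (0 and 0 without the course 1 array). Among all genes tested, 16.7% were lower and 15.1% higher at 30 min. FAR1 arrests the cycle in response to pheromone. It was at -1.21, -3.14, -1.33 and -1.76 in course 1 and -3.72, -2.13 and -1.10 in course 2. It was low on all 7 arrays and lowest at 30 min (-3.43 ± 0.20, SE, n = 2; limma, FDR = 4.66e-05). MFA2, a pheromone gene (-2.37), the receptor gene STE2 (-1.21) and the kinase gene FUS3 (-1.27) were lower too. The 3 higher were PRM10 (4.95), FUS2 (1.64) and STE18 (0.88). Ergosterol synthesis gave 7 lower and 0 higher of 24 tested at 30 min, beside the same shares of all genes. ERG2 (-1.32), ERG25 (-1.37) and CYB5 (-2.05) were among the 7.

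Cell wall genes went both ways, with a smaller share higher at 30 min than among all genes. Of 41 tested, 4 were higher and 10 lower at 30 min, beside 15.1% and 16.7% of all genes. At 60 min 6 were higher and 2 lower, beside 5.50% and 3.54%. At 60 min 2 were higher and 0 lower without the course 1 array. CWP1 and PIR3, proteins of the wall, were higher at both times (3.41 and 3.29 at 30 min, 3.31 and 3.57 at 60 min), and CHS1, a chitin synthase, and YPS1, a protease of the cell surface, were also higher at both times. SUN4 (-2.64), GAS1 (-2.32) and EXG1 (-1.75), which act on wall glucans or on the septum, were lower at 30 min. PST1, known to respond to wall damage, turned from -0.65 and -0.91 at 30 min to 1.55 and 1.57 at 60 min (difference 2.34, FDR = 0.0125, and 0.0537 without the course 1 array at 60 min). For GAS1 the 60 min arrays read 1.28 in course 1 and 0.06 in course 2.

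Phosphate genes were lower in a larger share than all genes, while the iron list was not. Of 22 phosphate genes tested, 12 were lower and 4 higher at 30 min, and 5 were lower and 2 higher at 60 min (0 and 2 without the course 1 array). PHO84 (YML123C), the high-affinity phosphate transporter, had log2 ratios of -1.60, -5.44, -1.45 and -1.06 in course 1 and -5.71, -1.76 and -1.01 in course 2. It was deeply low only on the 30 min arrays, by 47.5-fold on average, and the return by 60 min was called (difference 4.34, FDR = 0.00931). PHO11 (-3.51), PHO3 (-2.67), VTC1 (-2.55), VTC3 (-2.88), VTC4 (-2.50) and SPL2 (-2.30) were lower at 30 min. The members that rose were PHM7, PHM8 (3.97), GPP2 and PHO2 (0.93), and PHM7 and GPP2 also stand among the genes above. FRE1, a reductase of iron and copper at the cell surface, was among the 10 lowest genes. It was at -0.93, -2.84, -2.92 and -3.20 in course 1 and at -3.25, -2.85 and -3.46 in course 2, lowest at the end of both courses (-3.04 at 30 min, -3.19 at 60 min). CTR1, the copper transporter, was likewise flat (-3.23 and -3.11), with all arrays of course 2 below those of course 1. In the iron list, 3 of 22 were lower and 3 higher at 30 min, beside 16.7% and 15.1% of all genes, the latter being FIT1 (2.17), FRE4 (2.51) and HMX1 (2.04), none of which passed at 60 min.

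To describe timing without choosing and following genes on the same arrays, genes were chosen on one course and followed on the other. Genes whose mean ratio in course 2 was above 1 (379 genes measured on all 7 arrays) had median log2 ratios of 0.93, 1.84, 1.57 and 1.36 at the 4 times of course 1. For 200 of them 30 min was the highest time, for 126 it was 60 min, for 35 it was 90 min and for 18 it was 15 min, and 317 were above 0 at all 4 times. Those with a mean below -1 in course 2 (541 genes) had medians of -0.25, -1.58, -0.97 and -0.78, with 30 min lowest in 401, and 337 were below 0 at all times. In these medians the higher genes stood at 0.93 at 15 min and the lower genes at -0.25, on 1 array. Chosen on course 1 and followed on course 2, 337 higher genes had medians of 1.99, 1.58 and 1.26 and 355 lower genes of -1.80, -1.01 and -0.84 at 30, 45 and 60 min, with 30 min as the extreme time in 244 and 289 of them.

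The test of 60 against 30 min called 422 genes (8.43%) in limma at an FDR under 0.05, 253 with a higher (5.06%) and 169 with a lower ratio at 60 min (3.38%). The change from 30 to 60 min had the same sign in both courses for 70.5% of tested genes with all 4 values (3299 of 4682). This count rests on how the spread is estimated. It was 0 after arrays were scaled to one spread, 6 with wild-type arrays only, 3 without course 1, 120 without course 2 and 69 without the course 1 array at 60 min, so the genes that follow are given with their arrays. ARG1 (YOL058W), argininosuccinate synthetase of arginine synthesis, had the largest rise. It was at 0.01, -1.30, 4.26 and 3.78 in course 1 and -1.29, 1.76 and 3.63 in course 2. The ratio was below 0 on both 30 min arrays, nearly equal in the courses, and above 3.6 on both 60 min arrays (difference 5.24 ± 0.27, SE, n = 2; limma, FDR = 0.000703). MAE1, malic enzyme, was at -1.62, -3.58, 2.53 and -1.74 in course 1 and at -4.02, -2.20 and -0.95 in course 2. Both 60 min arrays lay above their 30 min arrays, and only that of course 1 lay above 0 (difference 4.59, FDR = 0.0347).

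The largest falls were those of PRR2, a kinase gene (mean of 5.05 at 30 min, 0.75 at 60 min), GSY1, PRM10, PHM7 and RGI1, a protein tied to respiratory growth. PRR2 and GSY1 had no value at 60 min of course 1. RGI1 was at 3.72, 5.12, 2.44 and 3.35 in course 1 and at 5.00, 2.51 and 1.37 in course 2, high at 30 min and lower on the following array in both courses (difference -3.16 ± 0.36, SE, n = 2; limma, FDR = 0.01002). PRM10, a pheromone-regulated membrane protein, was at 4.00, 5.40, 1.99 and 2.79 and at 4.51, 1.77 and 1.05, which gave a difference of -3.43 (FDR = 0.0453, and 0.105 without the course 1 array at 60 min).

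At 15 min only course 1 was sampled, so nothing is tested there. Relative to the mean of its later arrays, the genes highest at 15 min were YAL064W, PHO5, SPO13, YOR333C and YLR161W, by 2.70 to 3.35, and the lowest PKP2, SHC1, AMS1, HBT1 and MCM21, by -5.76 to -4.09. For PHO5, an acid phosphatase, the array read 1.58 at 15 min and -1.48, -2.90 and -0.88 later. SHC1 and MCM21 read -4.39 and -4.11 at 15 min and lay between -0.24 and 1.58 at the later times of course 1. SRX1, sulfiredoxin, picked from its values, read -5.01 at 15 min and -0.03 to 0.76 on the 5 other arrays with a value. Correlations of this array with those of course 2 were the lowest between the courses, at 0.407 to 0.442.

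At the same clock time of 30 min, NaCl was compared with the other stresses of the same strain, to describe where salt differed at that time. Both comparisons use the same 2 NaCl arrays. Against H2O2, 825 of 5137 genes differed (16.1%) in limma at an FDR under 0.05, 371 higher in NaCl (7.22%) and 454 lower (8.84%), and against heat shock 904 of 5108 (17.7%), 431 higher (8.44%) and 473 lower (9.26%). Both heat shock arrays have stressed RNA in the 650 nm dye, and with a dye term 600 genes differed from heat shock. Without the NaCl array of course 1, 341 and 387 genes differed, and without that of course 2, 364 and 407, and without the first heat shock array 569 differed from heat shock. Salt, oxidant and heat are single doses each, and their strength was not matched. The paper describes such responses as transient, and the phase each had reached at 30 min was not matched either. A difference in timing therefore cannot be told apart from one particular to salt.

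Of the genes of glycerol and sodium, GPP2 and DAK1 were called higher in NaCl than in both other stresses. GPD2 and TRK1 were called lower than in both. DAK1 differed by 1.32 from H2O2 and 1.02 from heat shock, GPD2 by -2.12 and -2.61, and TRK1 by -0.70 and -1.40. GPP2 was higher in NaCl by 4.55 against H2O2 (FDR = 8.04e-07) and by 4.45 against heat shock (FDR = 2.29e-05), with means of 5.96 in NaCl, 1.41 in H2O2 and 1.51 in heat shock. Of 12 glycerol genes tested against H2O2, 4 were higher in NaCl and 1 was lower, and of 11 against heat shock 3 and 1. Of 26 sodium and potassium genes tested, 4 were higher in NaCl than in H2O2 and 2 lower, and 4 were higher than in heat shock and 4 lower. The shares of all genes were 7.22% higher and 8.84% lower against H2O2, and 8.44% and 9.26% against heat shock. The sodium and potassium list thus went both ways. ENA1 was at 4.01 in NaCl on 1 array, between -1.26 and -0.19 on the 8 H2O2 arrays, and at 2.72 and 3.17 in heat shock. The value in NaCl lay above all others, but the difference was called only against H2O2 (4.82 ± 0.38, SE; FDR = 8.97e-06) and not against heat shock (1.07, FDR = 0.117). HXT1 was at 3.20 and 3.88 in NaCl, between -2.43 and -1.43 on the 7 H2O2 arrays with a value, and at -0.59 and 0.48 in heat shock. The difference was called in limma against both (5.34 ± 0.31 and 3.59 ± 0.39, SE, FDR = 8.04e-07 and 0.000254). Of 15 hexose genes tested, 4 were higher in NaCl than in H2O2 and 0 lower, beside 7.22% and 8.84% of all genes.

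PHM7 and PRM10 were also higher in NaCl than in both. PHM7 was at 8.38 and 7.32 in NaCl, from 0.14 to 4.11 on 6 H2O2 arrays and at 0.03 and 3.15 in heat shock, with the 2 heat shock arrays far apart. RTC3, at 8.79 on both NaCl arrays, was between 5.18 and 6.81 in H2O2 and at 2.81 and 1.94 in heat shock, and was the gene with the largest difference from heat shock (6.42 ± 0.50, SE; limma, FDR = 2.15e-05). SPS100, a spore wall gene, had 1 NaCl array (7.71), 3.32 to 4.73 in H2O2 and 0.75 and 2.31 in heat shock. GRE2, a reductase induced by osmotic stress, was at 5.48 and 5.29 in NaCl, from 3.55 to 4.76 in H2O2, and at 0.66 on the 1 heat shock array with a value.

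Genes chosen for the largest differences below H2O2 included antioxidant genes, and the redox list was lower in NaCl as well. SRX1 was at 0.18 and 0.76 in NaCl, between 5.03 and 6.81 in H2O2, and at 0.19 and -0.25 in heat shock. GTT2, a glutathione transferase, was at -0.07 and 0.70 against 5.09 to 6.49 in H2O2, and HSP30, a plasma membrane heat shock protein, at 1.25 and 0.38 against 3.54 to 7.23. The differences of NaCl from H2O2, by which these 3 genes were chosen, were -5.69 for SRX1, -5.66 for GTT2 and -5.19 for HSP30. Of 28 redox genes tested against H2O2, 19 were lower in NaCl and 1 was higher, beside 8.84% and 7.22% of all genes. The median difference of the redox genes was -1.36. TRR1, thioredoxin reductase, which fell in NaCl (-1.29), differed by -4.36. CYC1 was at -3.04 and -1.80 in NaCl, 2.50 to 3.49 in H2O2 and -0.28 and 0.16 in heat shock, so that NaCl was below both (differences -5.39 and -2.36, FDR = 3.33e-07 and 0.00252).

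Several repressed genes set salt apart from heat shock at 30 min. PHO84 was at -5.44 and -5.71 in NaCl, between -3.92 and -0.98 in H2O2 and at 0.01 and 0.27 in heat shock (NaCl minus heat shock -5.71 ± 0.72, SE; limma, FDR = 0.000502). MET6, methionine synthase, was at -2.68 and -3.34 in NaCl and 2.34 and 2.00 in heat shock, with -2.45 to -0.58 in H2O2 (difference from heat shock -5.18, FDR = 7.85e-05). PRM7, a pheromone-regulated protein, and FCY2, a purine-cytosine permease, were lower in NaCl than in heat shock as well (differences -4.26 and -3.94). Of 113 ribosome assembly genes tested, 45 were lower in NaCl than in heat shock and 0 higher, beside 9.26% and 8.44% of all genes. The median difference of the assembly genes was -1.51. Against H2O2, 2 of 114 were higher in NaCl and 0 lower, with a median of 0.03. Of 25 purine genes, 12 were lower than in heat shock. Most histone genes went the other way. They were near 0 at 30 min of NaCl, where 1 of 10 was called (HHO1, -1.25). Later they were lower, with a list median of -0.70 at 60 min. The list mean was -0.19, -0.03, -0.45 and -0.49 in course 1 and -0.38, -0.74 and -0.93 in course 2. HTA2 was the 1 called at 60 min (-1.23), and its fall from 30 min was called in limma (-1.03, FDR = 0.0424). At 30 min, 9 of 10 were higher in NaCl than in H2O2, with HHO1 lower (-1.05, limma, FDR = 0.0091). Against heat shock 7 were higher, and the median differences were 2.03 and 1.23. HTB1, for example, was at -0.04 in NaCl, -2.05 in H2O2 and -1.15 in heat shock. Proteasome genes were 0 higher and 10 lower of 38 in NaCl against H2O2, beside 7.22% and 8.84% of all genes.

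**Figure D5:**
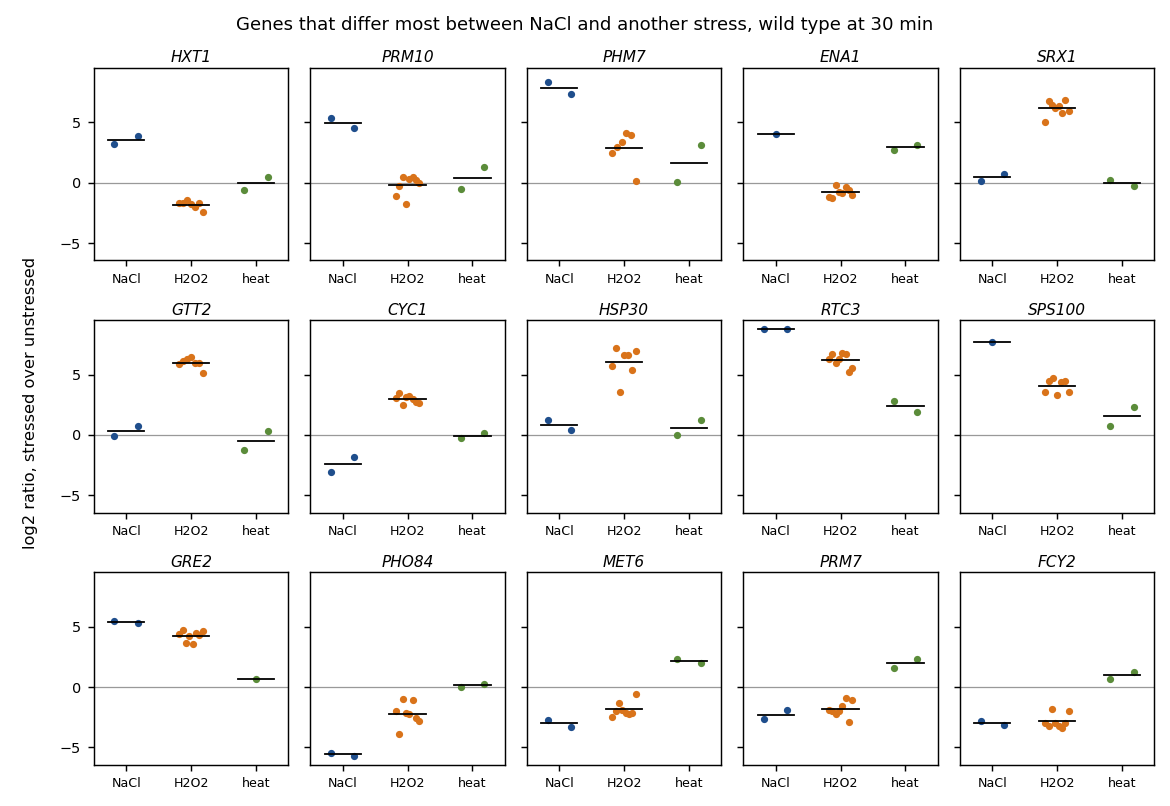
Log2 ratio (y axis) at 30 min in wild-type cells of the genes with the largest called differences between NaCl and H2O2 or NaCl and heat shock, 1 point per array (2 of NaCl, 8 of H2O2, 2 of heat shock where measured) with black bars at the means. HXT1, PRM10 and PHM7 are higher in NaCl, and SRX1, GTT2 and HSP30 are highest in H2O2. PHO84, MET6, PRM7 and FCY2 are low in NaCl but not in heat shock.

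Lists drawn up by the study on these very arrays are no independent evidence, and only their counts are given. Of 24 tested genes of its iESR cluster, 23 were higher at both times (13 at 60 min without the course 1 array), and of 7 tested genes of its cluster named for induction in NaCl only, 7 were higher at 30 min and 5 at 60 min (2 without it). Of the 404 protein synthesis genes tested, 299 were lower at 30 min and 96 at 60 min (0 without it).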

How the data were processed

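Values are log2 ratios of stressed over unstressed RNA that the authors deposited, 1 column per array, with a mean close to 0 on each. Their normalization, background correction and the reason for empty cells are not given in the sources used here, and neither is the direction of the ratio, which was read as stressed over unstressed because stress genes known to rise were positive in both courses. Arrays of opposite dye correlated positively, so none was turned. A fold change is 2 to the power of the log2 value. No depth applies to arrays, and their number limits the precision.

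Fits used limma 3.58.1 in R 4.3.3, with a mean per strain and time, 1 variance for the 14 NaCl arrays, genes measured on at least 80% of them, Benjamini-Hochberg adjustment, and FDR thresholds of 0.01 for levels and 0.05 for comparisons. Stresses were compared over 12 wild-type arrays at 30 min. Lists and figures used Python 3.11.15, numpy 2.4.6, pandas 2.3.3 and matplotlib 3.10.9. The model was tested on simulated data. Gene symbols came from a RefSeq table that matched 5832 of 6297 genes. Arrays of a course share a culture and a number, and this pairs them (deviations at 30 and 60 min correlated with r = 0.171 over 4682 genes in wild type and 0.371 over 4409 in rpd3Δ). Nothing says that p-values cover more than the spread between these cultures.

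Named genes are the 10 highest and 10 lowest at both times with 1 sign on every array, the 5 largest differences each way of 60 against 30 min, the 5 largest called course differences (none), the 4 largest each way against each other stress, the 5 most and least raised at 15 min, and members of lists. CTT1, SWI4 and a few others were picked from their values. Members and lists were chosen with earlier results of these data known. Alternatives were median centring, a common spread, other filters and thresholds, wild-type arrays only, a dye term, a replicate block and arrays left out. Leaving out the 15 min array or the 60 min array of course 1 was added after seeing the data. Promoter motifs were not run, and an item that the rule names is not reported here.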

Additional observations from a re-analysis of the deposited data

Results flagged for a closer look

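Differences between NaCl and another stress at 30 min whose own test passed in limma are listed here as log2 values. Against H2O2, NaCl was higher by 5.34 for HXT1, 5.16 for PRM10, 5.00 for PHM7 and 4.82 for ENA1, and lower by a difference of -5.69 for SRX1, -5.66 for GTT2, -5.39 for CYC1 and -5.19 for HSP30. Against heat shock, it was higher by 6.42 for RTC3, 6.25 for PHM7, 6.18 for SPS100 and 4.73 for GRE2, and the difference was -5.71 for PHO84, -5.18 for MET6, -4.26 for PRM7 and -3.94 for FCY2. ENA1 and SPS100 rest on 1 NaCl array each, and GRE2 on 1 heat shock array.

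In the H2O2 group, GTT2 was at 5.09 in replicate 8, below the other 6 arrays with a value, which lay between 5.91 and 6.49. Its distance from them passed Dixon's 95% limit, which chance passes in about 1 of 20 groups.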

How the results depend on the processing

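With wild-type arrays only, 585 genes were called over all times, 102 at 60 min (94 higher, or 92.2% against 60.8% in the joint fit), 6 for 60 against 30 min and 1 for the course. At the other FDR threshold (0.05 for levels, 0.01 for comparisons) the counts were 2417 over all times, 2471 at 30 min, 1265 at 60 min, 14 for 60 against 30 min, 356 against H2O2 and 262 against heat shock. Arrays scaled to one spread gave 718 at 30 min and 0 for 60 against 30 min. Without a filter, 281 were called at 60 min and 169 for 60 against 30 min. A dye term gave 600 against heat shock. Over 2-fold in both courses were 1241 genes (559 higher, 682 lower) and over 1.5-fold 2215 (1042 higher, 20.8%, and 1173 lower, 23.4%). Leaving out arrays gave 457 to 517 over all times, 554 to 707 at 30 min, 24 to 259 at 60 min, 3 to 120 for 60 against 30 min, 341 to 699 against H2O2 and 387 to 741 against heat shock. Without the course 1 array at 60 min, chosen after seeing the data, 57 were called at 60 min (94.7% higher) and 69 for 60 against 30 min, with 1128 over all times and 1587 at 30 min. Without the 15 min array, 1294 were called over all times. The causes were not tested.

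With the course as a random block (consensus correlation 0.218), the counts were 1367 over all times, 1590 at 30 min and 453 at 60 min, and with a fixed block 357 for 60 against 30 min. Among the named genes, the fixed block brought the differences of HBT1 and TKL2 (FDR = 0.0440 and 0.0473) and of CYC1 (0.0391) under 0.05, and that of HXT1 above it (0.0534). The 20 highest and lowest genes were chosen for 1 sign on every array, so that their signs could not test the processing. Of their 40 values, 1 lost its call with median centring, 0 with the random block and 8 with wild-type arrays only. Some also lost it when a course was left out.

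Times other than 30 and 60 min rest on 1 array. A lone array at 30 or 60 min was assumed to vary like the others. Genes empty at a time, GPD1 among them, could not be tested there.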

Other observations

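Genes of amino acid synthesis, a list made after values such as that of ARG1 were seen, were more often called higher at 60 than at 30 min. Of 11 arginine genes tested, 0 were higher and 2 lower at 30 min, and 5 were higher and 0 lower at 60 min, beside 15.1%, 16.7%, 5.50% and 3.54% of all genes. Without the course 1 array at 60 min, 1 was higher at 60 min. The medians were 0.20 and 1.60. ARG1, ARG3, ARG7 and ARG8 were among those that rose from 30 to 60 min. ARG8 had no value at 30 min of course 2, so that only course 1 holds both of its times. ARG3, ornithine carbamoyltransferase, was at 0.26, -0.09, 1.68 and 0.81 in course 1 and at -0.09, 1.62 and 1.19 in course 2. Both 30 min arrays were near 0 and both 60 min arrays above 1. ARG82, an inositol polyphosphate kinase that also regulates arginine genes, was called as falling (difference -0.92, FDR = 0.0455 in limma) and was not without that array.

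Of 42 genes of histidine, leucine, lysine, tryptophan, threonine and related synthesis, 17 were lower and 0 higher at 30 min, and 7 higher and 0 lower at 60 min (0 and 0 without the course 1 array). A rise from 30 to 60 min was called for 21 and a fall for 0, beside 5.06% and 3.38% of all genes, and for 10 without the course 1 array at 60 min. HIS4 was at -0.18, -1.68, 1.03 and 0.80 in course 1 and at -1.74, -0.11 and 1.18 in course 2, below 0 at 30 min and above it at 60 min in both. LEU4 (-0.79 and 1.44), LYS20 (-0.67 and 1.48), ARO3 (-0.47 and 1.38) and HOM3 (-0.27 and 2.44) had the same order at 30 and 60 min. GCN4, the activator of these genes, was at -1.19 at 30 min and 0.26 at 60 min. Its transcript level is given here and not its protein. The strain lacks HIS3, LEU2 and MET15 in stressed and unstressed cells alike.

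In the pentose phosphate pathway, also listed after values were seen, the minor forms had high ratios and the main forms did not. SOL4, GND2, TKL2 and NQM1 were at 6.71, 3.08, 7.05 and 6.52 at 30 min, while their counterparts SOL3, GND1, TKL1 and TAL1 were at -0.53, -1.11, -1.50 and -1.46. Of 14 genes tested on this list, 6 were higher and 4 lower at 30 min, beside 15.1% and 16.7% of all genes. Outside the minor forms named above, the 6 include SOL1 (2.99) and PGM2 (5.55). The list is thus wider than the enzymes of the pathway, and PGM2 is counted with the trehalose genes as well. TKL1, TAL1, RKI1 (-2.31) and RPE1 (-1.17) fell, whereas SOL3 and GND1 missed the threshold. ZWF1, the first enzyme, was at -0.12.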
